A study of Mus musculus with 2 samples.

Results

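The core circadian clock genes are 10 genes of the 32285 in the files, namely Arntl, Clock, Npas2, Cry1, Cry2, Per1, Per2, Per3, Nr1d1 and Dbp, which were chosen by their symbols and not by their measured values. Their transcripts were counted by single-nucleus RNA-seq of interscapular brown adipose tissue (BAT) from male mice of 8 weeks, as unique molecular identifiers (UMIs), each of which stands for 1 captured RNA molecule. 1 library was made from WT mice, which were Srsf1 flox/flox littermates with no Cre, and 1 from KO mice, which were Adipoq-Cre; Srsf1 flox/flox. Srsf1 encodes a splicing factor, both groups carried the floxed alleles, and the Adipoq promoter limits Cre to adipose tissue, where it is active in mature adipocytes. How many mice went into each library, and at what hour tissue was taken, is not given in the sources used here.

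The clock is a feedback loop that runs in most cells of the body with a period of about a day. BMAL1, the product of Arntl, pairs with CLOCK or NPAS2 and switches on genes that carry E-boxes, among them the Per and Cry genes, Nr1d1 and Dbp, and the PER and CRY proteins then inhibit that pair. REV-ERB alpha, the product of Nr1d1, represses genes with ROR elements, chiefly Arntl and Npas2 and also Clock and Cry1, so the E-box group and the ROR element group reach their peaks at different hours. In brown fat, REV-ERB alpha is also known as a repressor of thermogenic genes.

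With 1 library per genotype there was no replicate, so no difference was tested. Values are UMIs summed over all nuclei of a class in a library and set per 1000000 UMIs of that sum (counts per 1000000, CPM), differences are log2 ratios of KO to WT, and each 95% interval covers counting error only. Gene positions are those of GENCODE vM21 on mm10. Genotype, library preparation and hour of collection cannot be told apart.

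In all 5 classes of nuclei compared (adipocytes, adipose stem and progenitor cells (ASPCs), and endothelial, immune and mural nuclei), Arntl and Npas2 were higher in KO and Per1, Per2, Per3 and Dbp were lower, without correction for adipocyte RNA. Once that RNA was subtracted, Npas2 and Per2 lost their direction in endothelial nuclei, Per3 in ASPCs, endothelial and mural nuclei, and Per1 in immune nuclei, and Per2 had no value left in immune nuclei. Arntl, the gene for BMAL1, was 3.76-fold as high in KO as in WT adipocytes and between 1.49-fold and 3.13-fold as high in the other 4 classes. RNA of immune nuclei, in which Arntl was highest in both libraries, was not subtracted from any class. Dbp, an output transcription factor of the clock, was 1.54-fold as high in WT as in KO adipocytes and between 2.30-fold and 3.49-fold as high in WT in the other 4. Unlike the Per genes and Dbp, Nr1d1 was 1.51-fold as high in KO adipocytes, where Cry2 was 1.36-fold as high. Nr1d1 was lower in KO in the other 4 classes. Such shared directions were common in these libraries, since 49.8% of the 8957 genes with at least 50 UMIs in every class had 1 direction in all 5.

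The libraries held 12846 (WT) and 11495 (KO) barcodes with medians of 3439.5 and 4363 UMIs, of which 12771 and 11378 passed the filter on nuclei. 52 barcode sequences occurred in both libraries. The median share of mitochondrial UMIs was 1.10% in WT and 0.0489% in KO. Classes were called per nucleus by summed markers, which gave 2778 (WT) and 1031 (KO) adipocytes, 347 and 1926 ASPCs, 2661 and 1185 endothelial nuclei, 462 and 3495 immune nuclei, and 462 and 251 mural nuclei. 5891 WT and 3417 KO nuclei were left uncalled. Each class had all its markers at 1.5-fold or more over the other nuclei of its library, except WT adipocytes, in which 7 of 9 markers reached it. The Leiden cluster with the most nuclei of a class was 5 for WT and 24 for KO adipocytes, 3 for WT and 4 for KO endothelial nuclei, and the same in both libraries for ASPCs (7), immune (11) and mural nuclei (10). Srsf1, the targeted gene, was at 184 CPM in WT and 61.5 in KO adipocytes, a log2 ratio of -1.58 (-1.71 to -1.46), and it lay between -0.75 and -0.62 in the other 4 classes.

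**Figure D1:**
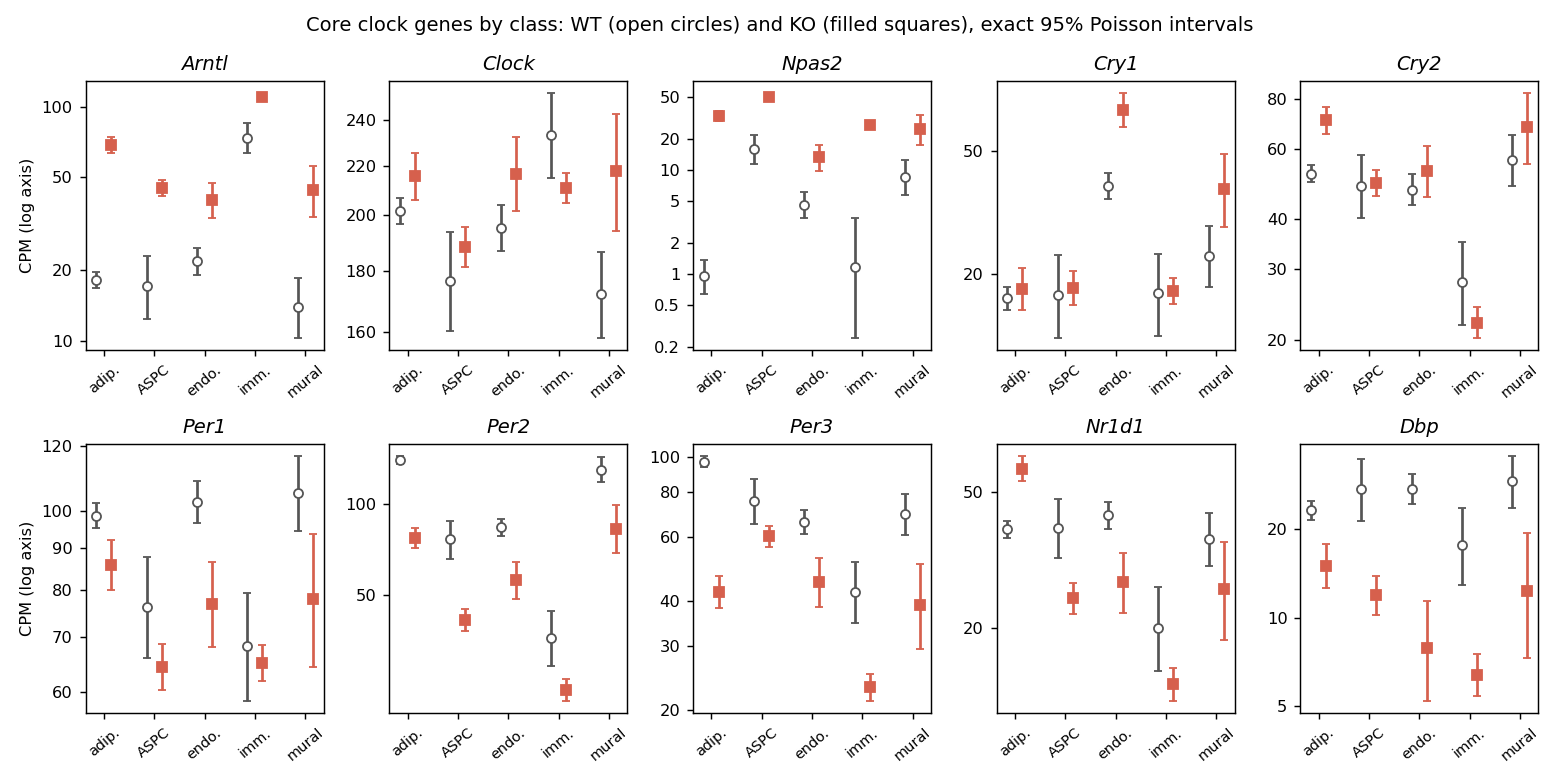
Level of each of the 10 clock genes in 5 classes, in CPM on a log axis with its own range in each panel. Open circles are WT sums, filled squares are KO sums, and bars are exact 95% Poisson intervals. The KO squares lie above the WT circles in every class for Arntl and Npas2 and below them in every class for Per1, Per2, Per3 and Dbp, before any subtraction of adipocyte RNA.

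Promoter sequences from RefSeq (GRCm38.p6) show which of these genes carry the elements of the loop near an annotated start, and the printed stretches are those that hold 1 of the 4 motifs searched. Entries of 250 bases before to 50 bases after a start matched 9 of the 10 genes, without Per2. The motifs, searched on both strands, were the E-box CACGTG, the variant E-box CACGTT, the D-box TTATGTAA to which DBP binds, and the ROR element core TAGGTCA. They occurred in 7.15%, 4.68%, 0.938% and 2.61% of the 32851 promoters in the table. In the lines below, the motif is in capitals, AACGTG is CACGTT read on the other strand, each sequence is on the strand of its gene, and no motif overlapped another.
Per1: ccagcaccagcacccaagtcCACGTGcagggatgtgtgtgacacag
Cry1, E-box: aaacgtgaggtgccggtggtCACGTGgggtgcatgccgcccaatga
Cry1, variant E-box: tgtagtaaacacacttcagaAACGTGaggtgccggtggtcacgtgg
Cry2: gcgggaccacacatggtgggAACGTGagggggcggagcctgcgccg
Nr1d1: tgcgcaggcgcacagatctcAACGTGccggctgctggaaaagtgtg
Per3, first D-box: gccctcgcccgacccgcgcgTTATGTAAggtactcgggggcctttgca
Per3, second D-box: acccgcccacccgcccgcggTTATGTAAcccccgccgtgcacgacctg
Arntl: aaggcagaaagTAGGTCAgggacggaggt

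The stretches lie, in that order, at chr11:69098763-69098808 (plus strand), chr10:85185089-85185134, chr10:85185108-85185153, chr2:92434210-92434255, chr11:98775380-98775425, chr4:151044843-151044890 and chr4:151044796-151044843 (all minus strand), and chr7:113207530-113207558 (plus strand). The motifs begin at positions -166, -60, -79, -166, -28, -205 and -158 relative to the RefSeq start, outside annotated exons. The ROR element core of Arntl begins at position 31 of a transcript, within an exon. The entries of Clock, Npas2 and Dbp held none of the 4 motifs, which says only that these letters are not in those windows.

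Arntl (ENSMUSG00000055116, chr7:113207465-113314126, plus strand) had the same direction in every class and its largest ratio in adipocytes. In adipocytes it was at 18.2 CPM in WT (569 UMIs, interval 16.7 to 19.7) and 68.3 in KO (615 UMIs, 63.0 to 73.9), a log2 ratio of 1.91 (interval 1.75 to 2.08). In ASPCs it was at 17.1 in WT (43 UMIs) and 45.0 in KO (639 UMIs), a log2 ratio of 1.40 (0.95 to 1.88). The intervals of the 2 libraries were apart in both classes. In mural nuclei it was at 13.97 in WT (47 UMIs) and 43.8 in KO (64 UMIs), a log2 ratio of 1.65 (1.08 to 2.22). In endothelial nuclei it was at 21.8 in WT (231 UMIs) and 39.8 in KO (142 UMIs), a log2 ratio of 0.87 (0.56 to 1.18). Immune nuclei had the highest level in both libraries and the smallest ratio. They were at 73.7 in WT (188 UMIs, 63.6 to 85.1) and 110 in KO (2559 UMIs, 105 to 114), a log2 ratio of 0.57 (0.36 to 0.79). Among the other 4 WT classes, which lay between 13.97 and 21.8 CPM, neighbouring intervals overlapped. In KO, adipocytes stood next below immune nuclei with an interval apart from both sides, and the intervals of ASPCs, mural and endothelial nuclei overlapped. Without the top 10% of doublet scores the log2 ratio of Arntl fell to 0.49 in endothelial nuclei, below the counting interval given above. It was then 1.14 for mural nuclei and 1.11 for ASPCs, and it stayed at 1.90 for adipocytes and 0.56 for immune nuclei.

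Npas2 (ENSMUSG00000026077, chr1:39193731-39363236, plus strand), a paralog of Clock that can take its place beside BMAL1, had the largest ratio of the 10 genes in every class except mural nuclei, where that of Arntl was larger. In adipocytes it rested on 30 UMIs in WT, or 0.957 CPM (0.646 to 1.37), and on 297 in KO, or 33.0 CPM (29.3 to 37.0). Its log2 ratio was 5.11 (4.56 to 5.70), which is 34.5-fold. Of all genes tested in adipocytes, 99.5% had a lower ratio. In immune nuclei only 3 UMIs were counted in WT, or 1.18 CPM (0.243 to 3.44), against 627 in KO, or 26.9 CPM. That log2 ratio was 4.51 with a counting interval of 2.96 to 6.79, but 2.11 (0.15 to 5.21), from 2 and 35 UMIs, within the immune clusters present in both libraries. ASPCs, the WT class with the most Npas2, were at 15.9 in WT (40 UMIs) and 50.8 in KO (722 UMIs), a log2 ratio of 1.68 (1.22 to 2.17). Mural nuclei were at 8.62 in WT (29 UMIs) and 24.6 in KO (36 UMIs), a log2 ratio of 1.52 (0.77 to 2.27). That mural ratio was below 2-fold under 5 alternatives, namely 0.08 after subtraction of adipocyte RNA, 0.27 as a mean over nuclei, 0.35 with fixed limits on nuclei, 0.71 without the top doublet scores and 0.96 with stricter calls. Endothelial nuclei were at 4.63 in WT (49 UMIs) and 13.2 in KO (47 UMIs), a log2 ratio of 1.51 (0.90 to 2.12). The endothelial ratio was the only one of the Npas2 ratios that changed sign under another processing. It was -0.16 when adipocyte RNA was subtracted, -0.29 (15 and 4 UMIs) within the endothelial clusters present in both libraries, and 0.64 with stricter calls. In WT the classes stood in the order ASPCs, mural, endothelial, immune and adipocyte, with overlapping intervals between neighbours. In KO the adipocytes stood next below the ASPCs, and their interval overlapped that of mural nuclei alone.

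Clock (ENSMUSG00000029238, chr5:76209868-76304792, minus strand), whose product is the usual partner of BMAL1, had ratios near 0, from -0.14 to 0.34 on the log2 scale. In adipocytes it was at 202 CPM in WT (6328 UMIs) and 216 in KO (1941 UMIs), a log2 ratio of 0.09 (0.02 to 0.17). In immune nuclei it was at 233 in WT (594 UMIs) and 211 in KO (4919 UMIs), a log2 ratio of -0.14 (-0.27 to -0.02). The immune class was therefore the only one with less Clock in KO, and its ratio was 0.04 when classes were formed from Leiden clusters. In mural nuclei it was at 172 in WT and 218 in KO, a log2 ratio of 0.34 (0.14 to 0.54). ASPCs (0.09) and endothelial nuclei (0.15) had ratios close to that of adipocytes. All 3 changed sign under 1 alternative each, to -0.02 in adipocytes as a mean over nuclei, to -0.04 in ASPCs of Leiden clusters and to -0.58 in endothelial clusters present in both libraries.

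The cryptochromes, which inhibit BMAL1 and CLOCK, had ratios above and below 0, and most of them had intervals that include 0. Cry1 (ENSMUSG00000020038, chr10:85131700-85185064, minus strand) was higher in KO endothelial nuclei, at 38.7 CPM in WT (410 UMIs) and 68.2 in KO (243 UMIs), a log2 ratio of 0.82 (0.58 to 1.05). Cry1 in mural nuclei was at 22.9 in WT (77 UMIs) and 37.6 in KO (55 UMIs), a log2 ratio of 0.72 (0.19 to 1.24), but at -0.03 when nuclei were kept by fixed limits. Of those KO UMIs 13 came from 1 nucleus, and the share of mural nuclei with a UMI of Cry1 was 13.2% in WT and 13.1% in KO. These vascular classes had the highest levels of Cry1 in each library. In adipocytes, ASPCs and immune nuclei its level lay between 16.6 and 18.0 in both libraries and its ratio between 0.03 and 0.11, with intervals that include 0. The Cry1 ratio in ASPCs or immune nuclei turned negative in 6 of the 12 alternative processings. Cry2 (ENSMUSG00000068742, chr2:92403646-92434043, minus strand) was higher in KO adipocytes, at 52.0 in WT (1629 UMIs) and 70.6 in KO (636 UMIs), a log2 ratio of 0.44 (0.31 to 0.58). In the other 4 classes its ratio lay between -0.34 (immune) and 0.27 (mural), with intervals that include 0, and it changed sign in ASPCs or mural nuclei under some alternatives.

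The Per genes encode the proteins that hold the inhibitory complex together, and each had log2 ratios below 0 in every class, without subtraction of adipocyte RNA. Per2 (ENSMUSG00000055866, chr1:91415982-91459324, minus strand) in adipocytes was at 140 CPM in WT (4390 UMIs, 136 to 144) and 77.3 in KO (696 UMIs, 71.7 to 83.3), a log2 ratio of -0.86 (-0.97 to -0.74). In ASPCs Per2 was at 76.3 in WT (192 UMIs) and 41.3 in KO (587 UMIs), a log2 ratio of -0.88 (-1.12 to -0.64). The range over classes was narrow, from -0.65 in mural to -0.57 in immune nuclei outside the 2 classes above, and every interval was below 0. Adipocytes and mural nuclei had the most Per2 in both libraries, with overlapping intervals, and immune nuclei the least, at 36.1 in WT and 24.3 in KO.

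Per3 (ENSMUSG00000028957, chr4:151003652-151044665, minus strand) was the 1 clock gene more than 2-fold lower in KO adipocytes, at 97.1 CPM in WT (3045 UMIs, 93.7 to 101) and 42.5 in KO (383 UMIs, 38.4 to 47.0), a log2 ratio of -1.19 (-1.35 to -1.04). In ASPCs Per3 was at 75.5 in WT (190 UMIs) and 60.4 in KO (858 UMIs), a log2 ratio of -0.32 (-0.55 to -0.09). In WT, adipocytes had the highest level of Per3 of the 5 classes, and in KO ASPCs did. Endothelial nuclei (-0.55), immune nuclei (-0.87) and mural nuclei (-0.83) had intervals below 0. As a mean over nuclei the endothelial ratio of Per3 was -0.15, outside its counting interval (-0.81 to -0.30).

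Per1 (ENSMUSG00000020893, chr11:69095217-69109960, plus strand), which is also known to respond quickly to hormones and cAMP, differed least among the Per genes. It was at 98.7 CPM in WT (3093 UMIs) and 85.9 in KO (773 UMIs) adipocytes, a log2 ratio of -0.20 (-0.32 to -0.09). In immune nuclei it was at 68.3 in WT (174 UMIs) and 65.1 in KO (1518 UMIs), a log2 ratio of -0.07 (-0.30 to 0.17). The immune interval was the only Per1 interval that includes 0. The log2 ratio was -0.24 in ASPCs, -0.42 in endothelial and -0.43 in mural nuclei.

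Dbp (ENSMUSG00000059824, chr7:45705088-45710203, plus strand) was lower in KO, in CPM, in all 5 classes compared, although its counts were small. In adipocytes it was at 23.2 CPM in WT (726 UMIs, 21.5 to 24.9) and 15.0 in KO (135 UMIs, 12.6 to 17.7), a log2 ratio of -0.63 (-0.90 to -0.36). In endothelial nuclei it was at 27.4 in WT (290 UMIs, 24.3 to 30.7) and 7.86 in KO (28 UMIs, 5.22 to 11.4), a log2 ratio of -1.80 (-2.42 to -1.24). The fall of Dbp in KO was thus smallest in adipocytes and largest in endothelial nuclei. In immune nuclei it was at 17.7 in WT (45 UMIs) and 6.39 in KO (149 UMIs), a log2 ratio of -1.47 (-1.957 to -0.95). The ratios of mural nuclei (-1.24) and ASPCs (-1.20) lay between those values. In WT the intervals of neighbouring classes overlapped, from mural nuclei at 29.1 down to immune nuclei. With stricter calls the adipocyte ratio of Dbp was -0.29, outside the counting interval given above.

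Nr1d1 (ENSMUSG00000020889, chr11:98767932-98775333, minus strand) was higher in KO in adipocytes and lower in the other classes. In adipocytes it was at 39.0 CPM in WT (1222 UMIs, 36.8 to 41.2) and 58.8 in KO (529 UMIs, 53.9 to 64.0), a log2 ratio of 0.59 (0.44 to 0.74). In ASPCs it was at 39.3 in WT (99 UMIs, 32.0 to 47.9) and 24.4 in KO (347 UMIs, 21.9 to 27.1), a log2 ratio of -0.69 (-1.01 to -0.35). In WT the intervals of adipocytes, ASPCs, endothelial and mural nuclei overlapped, and in KO adipocytes stood apart from the rest. In endothelial nuclei it was at 42.8 in WT (453 UMIs) and 27.2 in KO (97 UMIs), a log2 ratio of -0.65 (-0.98 to -0.33). In immune nuclei it was at 20.01 in WT (51 UMIs) and 13.7 in KO (319 UMIs), a log2 ratio of -0.55 (-0.98 to -0.09). The mural ratio of -0.49 had an interval that includes 0. Nr1d1 shares 1075 bases at its 3′ end with Thra, the gene for thyroid hormone receptor alpha, on the plus strand. Whether counting used strand is not stated, so reads of the shared stretch are uncertain. Thra was also higher in KO adipocytes, at 35.1 in WT (1099 UMIs) and 83.5 in KO (752 UMIs), a log2 ratio of 1.25 (1.12 to 1.39), and its part in the Nr1d1 value was not tested. In the other 4 classes the log2 ratio of Thra lay between 0.12 and 0.59, above 0 where that of Nr1d1 was below 0.

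**Figure D2:**
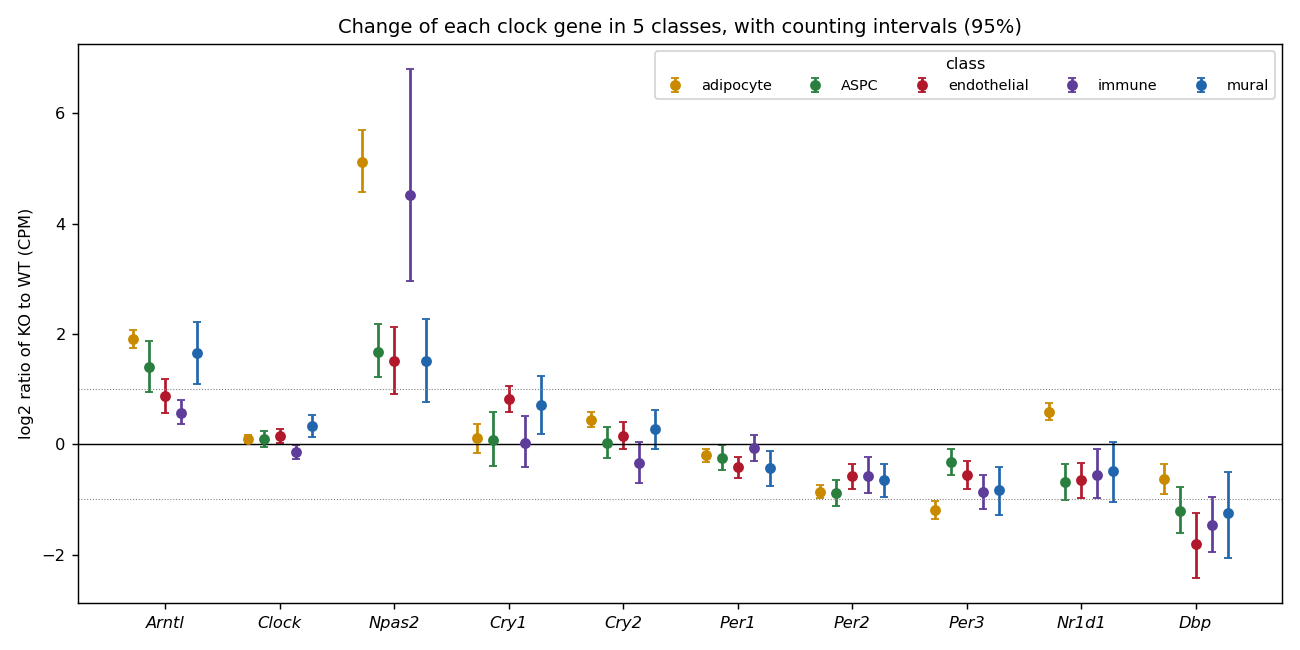
Log2 ratio of KO to WT for the 10 clock genes, with 1 point per class and bars for the 95% counting interval, and dotted lines at 2-fold. All 5 points of Arntl and Npas2 lie above 0 and all 5 points of Per2, Per3 and Dbp below it (without subtraction of adipocyte RNA), and the adipocyte point of Nr1d1 at 0.59 is apart from the 4 other classes.

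All 50 combinations of gene and class had at least 65 UMIs over both libraries and so passed the minimum of 50. In adipocytes 2 of the 10 genes, Arntl and Npas2, were at least 2-fold higher in KO and 1, Per3, at least 2-fold lower, beside 16.9% and 18.5% of the 14195 genes tested. In ASPCs the same 2 genes were at least 2-fold higher and Dbp lower, beside 7.28% and 11.2% of all genes. In endothelial nuclei only Npas2 was past 2-fold higher and only Dbp lower, beside 4.46% and 15.3%. In immune nuclei Npas2 and Dbp were again the genes past 2-fold, beside 8.18% and 10.8%. In mural nuclei Arntl and Npas2 were past it in the higher direction and Dbp in the lower, beside 6.67% and 11.6%. Under some alternatives Npas2 was no longer past 2-fold in mural and endothelial nuclei, as given above, nor was Dbp in mural nuclei of Leiden clusters (-0.94). In adipocytes, where large ratios were common, the share of clock genes past 2-fold was thus close to or below that of all genes.

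The median log2 ratio of the 10 genes was 0.10 in adipocytes and lay between -0.24 (immune) and -0.08 (mural) in the other classes. The medians of all genes tested were 0.01 in adipocytes and between -0.03 and 0.08 elsewhere, so the genes parted in both directions and did not shift as a block. 3 of the 10 genes (Arntl, Npas2 and Cry1) were higher in KO in all 5 classes, beside 25.6% of all genes, and 4 (Per1, Per2, Per3 and Dbp) were lower, beside 24.1%. Together 7 of the 10 had 1 direction in all 5 classes, beside 49.8% of all genes. For 5 of them (Arntl, Npas2, Per2, Per3 and Dbp) every interval was also off 0, beside 23.3% of all genes. These were 2 higher genes, beside 11.0%, and 3 lower genes, beside 12.2%. The intervals of single classes were off 0 for 9 of the 10 genes in adipocytes and endothelial nuclei, 7 in ASPCs and immune nuclei and 8 in mural nuclei, beside 75.6%, 57.0%, 50.7%, 47.8% and 50.6% of all genes in these classes. The classes of 1 library share its preparation and its free RNA and are not replicates.

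**Figure D3:**
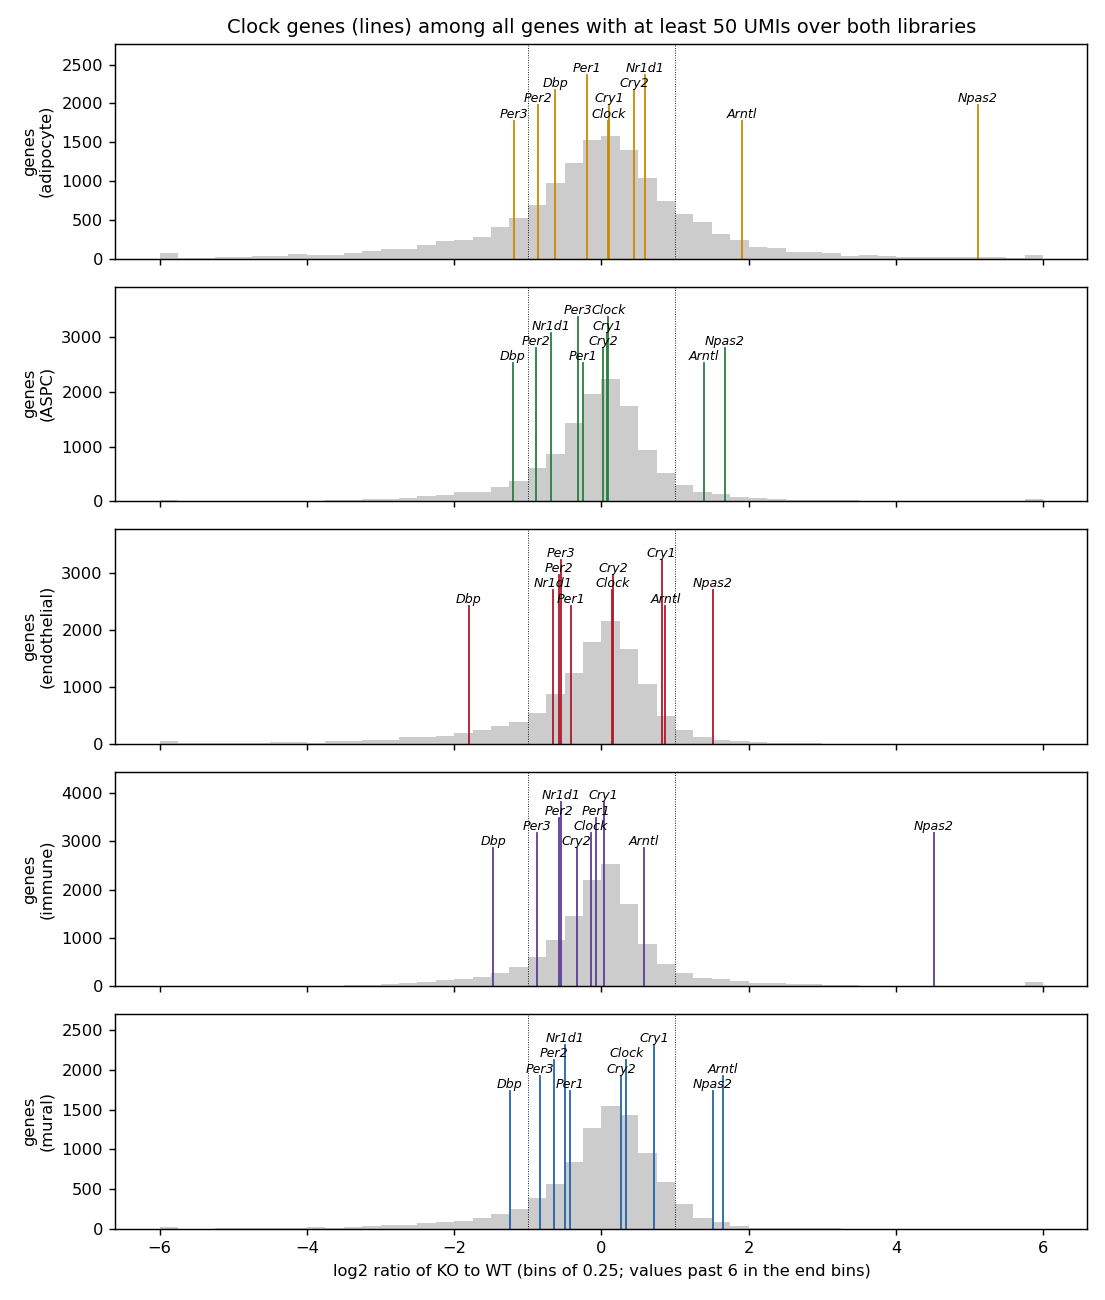
Ratios of the clock genes (coloured lines) among all genes with at least 50 UMIs (grey bars, number of genes per bin of 0.25 on the log2 scale) in each class. Npas2 lies in the outer right tail in adipocytes and immune nuclei, Arntl in the right flank of every class, and most of the other genes within the 2-fold limits drawn as dotted lines.

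A ratio of sums within 1 library does not depend on how that library was scaled. UMIs of the E-box group (Per1, Per2, Per3, Nr1d1 and Dbp) were therefore divided by those of the ROR element group (Arntl, Npas2, Clock and Cry1). Since UMIs were not set per length of the genes, this balance can be compared between libraries but does not say which group was more abundant. Cry1 was counted in the ROR element group although E-boxes also lie near its start, and Cry2, an E-box gene too, was in neither group. Cry2 had log2 ratios of 0.44 in adipocytes and between -0.34 and 0.27 in the other classes. Most UMIs of the ROR element group in adipocytes were of Clock, with 6328 in WT and 1941 in KO. In adipocytes the balance was 1.68 in WT (12476 over 7448 UMIs, interval 1.63 to 1.72) and 0.835 in KO (2516 over 3014 UMIs, 0.791 to 0.880), a log2 change of -1.005 (-1.09 to -0.92). In all 5 classes the interval of KO lay below that of WT. In ASPCs it was 1.30 in WT and 0.670 in KO, a log2 change of -0.96 (-1.13 to -0.79). In endothelial nuclei it was 1.24 in WT and 0.631 in KO, a log2 change of -0.97 (-1.12 to -0.82). These 3 changes had overlapping intervals. Mural nuclei had the largest change, -1.21 (-1.45 to -0.97), from 1.70 to 0.736. Immune nuclei had the smallest, -0.64 (-0.82 to -0.47), from 0.567 to 0.363, and they had the lowest balance in both libraries. The pair of Arntl and Per2 moved likewise. In adipocytes there were 0.130 UMIs of Arntl per UMI of Per2 in WT and 0.884 in KO, and in immune nuclei 2.04 and 4.52.

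**Figure D4:**
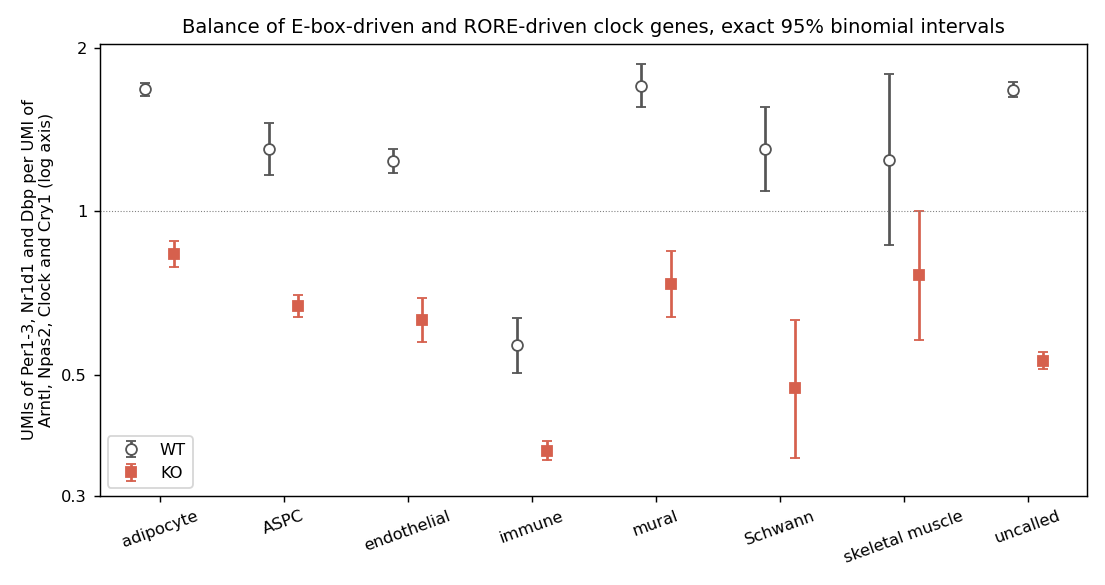
Balance of the clock genes, as UMIs of Per1 to Per3, Nr1d1 and Dbp per UMI of Arntl, Npas2, Clock and Cry1, on a log axis, for WT (open circles) and KO (filled squares) in each class and in the nuclei that were too few or not called. Bars are exact 95% binomial intervals, and KO lies below WT in all 8 sets, with overlapping intervals in skeletal muscle alone.

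RNA of adipocytes was present in the other classes, more in WT than in KO. The summed level of the 9 adipocyte markers was 10338 CPM in WT and 11291 in KO adipocytes, and none of the 4 other classes was free of it. It lay between 2286 (immune) and 5467 (mural) in WT and between 1831 (ASPC) and 3257 (mural) in KO. Over 8 adipocyte genes kept out of the markers, among them Ucp1, the uncoupling protein of brown fat, the median level relative to adipocytes was 37.5% in WT and 21.3% in KO ASPCs. It was lowest in immune nuclei (28.6% in WT, 19.5% in KO), and higher in endothelial (47.5%, 23.5%) and mural nuclei (56.1%, 38.1%). Single genes varied widely around these medians, from 37.6% to 102% in WT and from 13.4% to 67.0% in KO endothelial nuclei. The median share of the adipocyte level was subtracted and the rest scaled up to make up for it, by different factors in WT and KO. 3 genes then kept 1 direction in all 5 classes, namely Arntl, Cry1 and Dbp. Outside adipocytes the log2 ratio of Arntl then lay between 0.31 (endothelial) and 1.73 (mural), and that of Cry1 in immune nuclei was 0.00. Dbp lay between -2.46 (endothelial) and -1.44 (ASPCs). Per2 stayed below 0 in ASPCs (-0.27) and mural nuclei (-0.44), turned to 0.60 in endothelial nuclei, and was left with no value above 0 in WT immune nuclei. Per3 stayed below 0 in immune nuclei (-0.14) and turned to 0.06 in ASPCs, 0.26 in endothelial and 0.10 in mural nuclei. Per1 in immune nuclei turned to 0.10. Nr1d1 was further below 0 after subtraction, with log2 ratios between -2.53 and -1.39 outside adipocytes. RNA of immune nuclei was not subtracted, and it was present in the other classes, more in KO than in WT. The summed level of the 8 immune markers was 152 CPM in WT and 348 in KO adipocytes. It was 330 and 695 in mural nuclei, 260 and 717 in ASPCs, and 368 and 697 in endothelial nuclei. The part of immune RNA in the Arntl ratios was not tested.

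The composition of the classes was a further difference between the libraries. Within Leiden clusters that held at least 50 called nuclei of a class in each library, a choice made after the data had been seen, Arntl had log2 ratios between 0.56 (immune) and 1.61 (mural), and of 0.91 (-0.32 to 2.07), from 18 and 11 UMIs, in the 459 WT and 154 KO endothelial nuclei of such clusters. Dbp lay between -1.20 and -1.09 in ASPCs, mural and immune nuclei, and at -2.97 (-6.06 to -1.04) in endothelial nuclei, from 48 and 2 UMIs. Other ratios changed more. Npas2 in immune nuclei was at 4.47 CPM in KO in place of 26.9, and Cry1 was at -0.53 in ASPCs and -0.15 in immune nuclei. No adipocyte cluster met that limit, so the adipocyte ratios compare nuclei of different clusters.

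**Figure D5:**
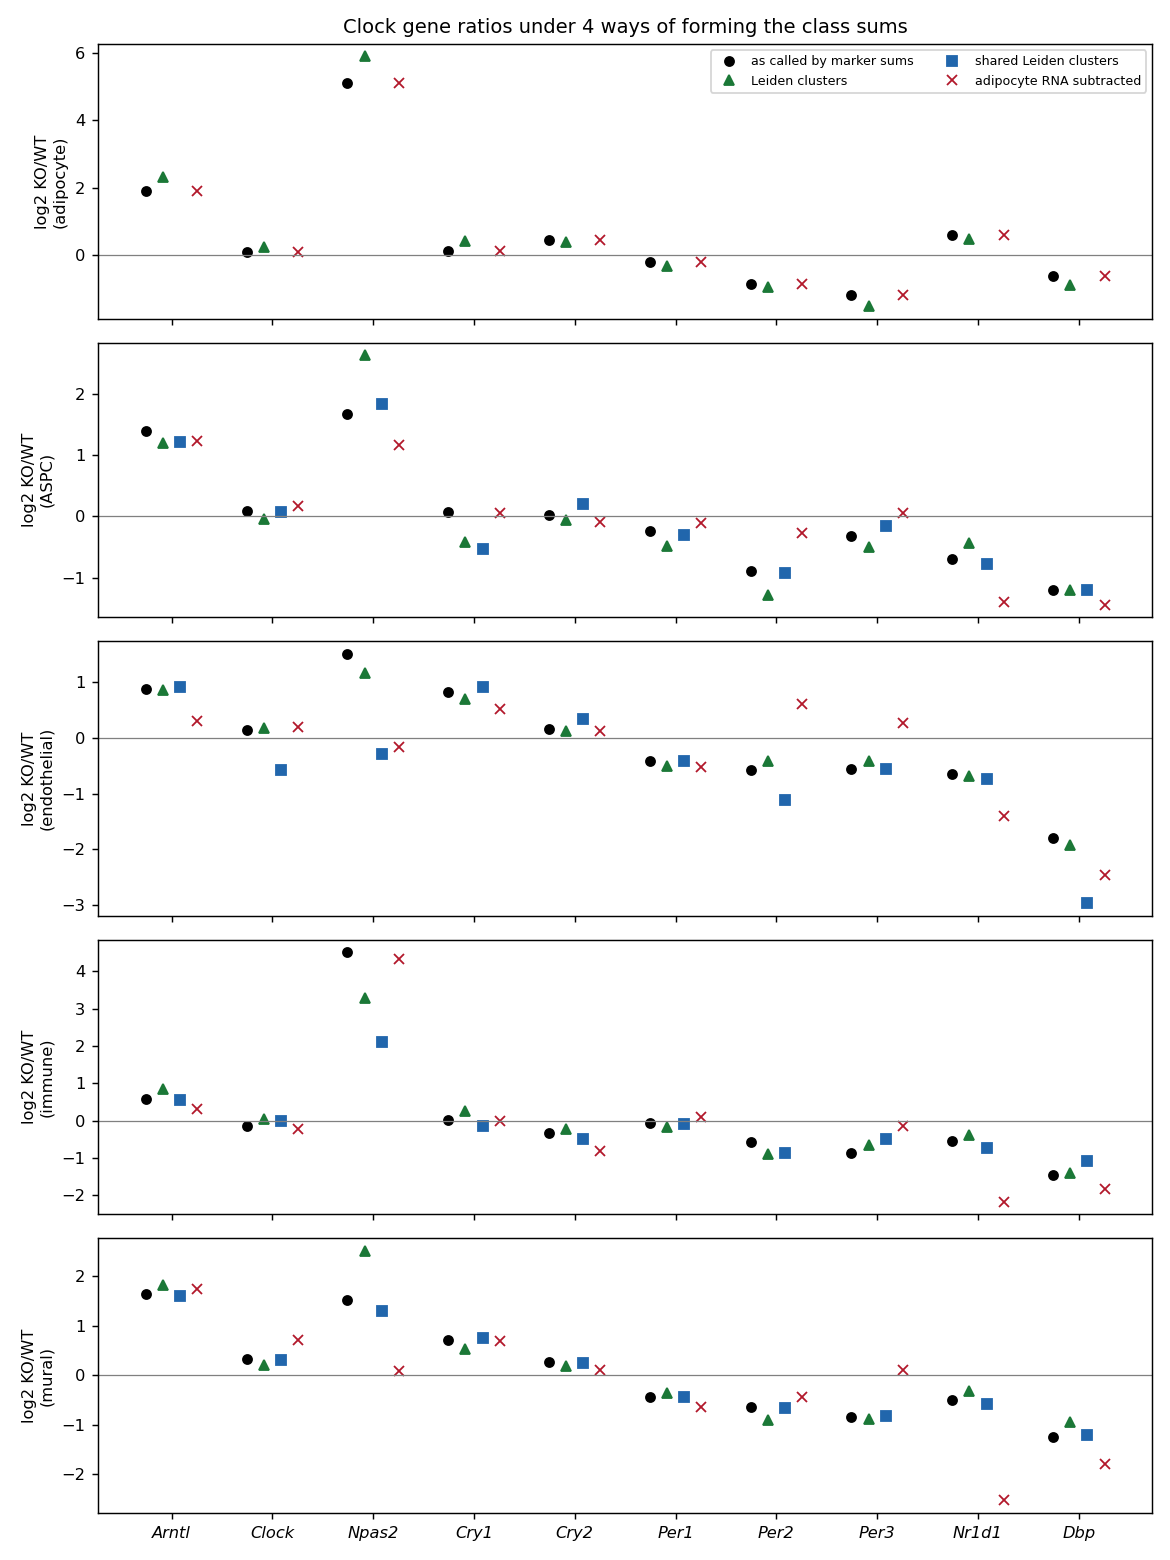
Log2 ratio of KO to WT of the 10 clock genes in each class under 4 ways of forming the sums: nuclei called by markers (black circles), whole Leiden clusters (green triangles), clusters shared by both libraries (blue squares, none for adipocytes) and adipocyte RNA subtracted (red crosses, equal to the black circles in adipocytes). Arntl stays above 0 and Dbp below 0 in every panel, while Npas2, Per2 and Per3 cross 0 in endothelial nuclei, Per3 also in ASPCs and mural nuclei, Per1 in immune nuclei, and Clock, Cry1 and Cry2 in some panels.

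Among other genes of the pathway, the second loop and output factors had a median log2 ratio of -0.58 in adipocytes and medians from -0.85 (endothelial) to -0.38 (immune) elsewhere, beside the medians of all genes near 0 given above. At least 2-fold lower in KO were 3 of 11 in adipocytes (18.5% of all genes), 1 of 11 in ASPCs (11.2%), 4 of 11 endothelial (15.3%), 3 of 11 immune (10.8%) and 4 of 10 mural (11.6%). Tef, a relative of Dbp that binds the same D-boxes, was at 305 CPM in WT (9575 UMIs) and 138 in KO (1242 UMIs) adipocytes, a log2 ratio of -1.15 (-1.23 to -1.06). Its log2 ratios in the other classes lay between -1.08 and -0.85, a narrower range than that of Dbp. Ciart, a repressor that is itself driven by E-boxes, had a log2 ratio of -0.39 in adipocytes and lay between -2.19 (mural) and -0.91 (ASPCs) in the other classes. Rorb, a receptor that binds ROR elements, was at 26.5 in WT (832 UMIs) and 3.78 in KO (34 UMIs) adipocytes, a log2 ratio of -2.81. The log2 ratio of Rorb was -3.75 in mural nuclei (93 UMIs in WT, 3 in KO) and -1.34 in endothelial nuclei. It was -0.03 in ASPCs and 0.05 in immune nuclei. Arntl2, the paralog of Arntl, was higher in KO in 2 of the 5 classes and lower in 3, whereas Arntl was higher in all 5. Arntl2 was at 7.75 in WT (243 UMIs) and 3.44 in KO (31 UMIs) adipocytes, a log2 ratio of -1.17, and at 13.4 in WT (142 UMIs) and 44.0 in KO (157 UMIs) endothelial nuclei, a log2 ratio of 1.72 (1.38 to 2.05).

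The kinases, ubiquitin ligases and partners of clock proteins seldom passed 2-fold. The 10 tested of 11 in adipocytes had a median of 0.32, and 1 of them was at least 2-fold higher in KO, beside 16.9% of all genes. That gene was Csnk1e, a casein kinase that phosphorylates PER proteins, at 10.1 CPM in WT (316 UMIs) and 25.1 in KO (226 UMIs), a log2 ratio of 1.32 (1.06 to 1.57). In the other classes none of the list passed 2-fold, and the medians lay between 0.18 and 0.34.

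Of 7 outputs of the clock, 2 were at least 2-fold lower in every class, namely Nampt and Usp2, beside 5.07% of the genes tested in all 5 classes. Nampt, the rate-limiting enzyme of NAD salvage, was at 596 CPM in WT (18686 UMIs) and 189 in KO (1702 UMIs) adipocytes, a log2 ratio of -1.66 (-1.73 to -1.59). In the other classes Nampt lay between -1.79 (endothelial) and -1.22 (immune). Usp2, a deubiquitinase that acts on clock proteins, was at 74.4 in WT (2332 UMIs) and 18.7 in KO (168 UMIs) adipocytes, a log2 ratio of -1.995 (-2.23 to -1.77), and between -3.02 and -1.17 in the other classes. Both genes had the direction of Per2, Per3 and Dbp. Beside them, 7 of the 8 adipocyte genes kept out of the markers were at least 2-fold lower in KO in each class, with medians from -1.65 in adipocytes to -3.15 in endothelial nuclei, and the part of adipocyte RNA in the pathway lists was not tested. 2 outputs were at least 2-fold higher in KO adipocytes, beside 16.9% of all genes. They were Por, the reductase of cytochrome P450 enzymes, with a log2 ratio of 1.10, and the tetraspanin Tspan4, with 1.47. The median of the outputs was -0.47 in adipocytes and between -0.22 and -0.02 in the other classes.

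Genes induced by glucocorticoids, hormones with a daily rhythm that also act on Per1, had a median log2 ratio of 0.10 in adipocytes and medians between -0.63 (ASPCs) and -0.08 (mural) elsewhere, over 9 genes. Past 2-fold in adipocytes were Sgk1, a kinase, with a log2 ratio of -1.20 (1 of 9, beside 18.5% of all genes lower), and Mt2, a metallothionein, with 1.82 (1 of 9, beside 16.9% higher).

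The genes most like each clock gene were found by Pearson's correlation of log2(CPM + 1) over the 10 sums of 5 classes and 2 libraries, among 14059 genes with at least 200 UMIs. These points share libraries, depth and free RNA, so the values are a description. Per2 was most like Nr1d2, the paralog of Nr1d1 (r = 0.97), and Ghdc (0.97). Arntl was most like Tmem87b (0.98) and Pltp (0.97), Per3 like Pcsk5 (0.98) and Ackr3 (0.97), Dbp like Hsd3b7 (0.97) and Pard3bos1 (0.96), and Npas2 like Rhbdl3 and Mta1 (0.94 each). Among the clock genes themselves, the levels of Arntl ran against those of Per3 (r = -0.89), Per2 (-0.83) and Dbp (-0.79) and with those of Clock (0.75). Per1 and Per2 ran together (0.88), while Npas2 and Arntl did so less (0.34). In both libraries Npas2 was highest in ASPCs and Arntl in immune nuclei, and the reason for the lower correlation was not tested.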

How the data were processed

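The deposited matrices, 1 per library, hold the authors' unnormalized UMI counts for each gene and nucleus. Cell Ranger 5.0.0 is named in the file headers and, with Seurat 3.1.1 and mm10, in the submitters' processing notes, while the study's methods name another Cell Ranger version, and the use of intronic reads and of strand is not given in the sources used here. A filter on nuclei asked for 200 genes or more, 10% mitochondrial UMIs or less, and log UMIs and log genes no further than 3 median absolute deviations from the median of the library. A nucleus was called by the class whose marker UMIs most exceeded the count expected from its depth (score at least 3, at least 3 marker UMIs, and at least 2 times the second score). Of the called nuclei, 1201 WT and 398 KO adipocytes failed stricter limits, and 1369 WT and 945 KO uncalled nuclei passed looser ones. Scrublet called no doublet in WT, so it did not work there, and 19.4% in KO; called doublets were kept. Leiden clusters used 2000 variable genes, 30 components, 15 neighbours and a resolution of 0.5 (scanpy 1.11.5, igraph 0.11.9, Python 3.11.15).

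UMIs were summed per class and library and set per 1000000 (CPM). Intervals of sums are exact Poisson intervals, intervals of ratios come from the exact binomial share of both sums, and the interval of a change of balance is a normal one on the log scale. With 1 library per genotype no test was made. The calculation of ratios was run on simulated sums drawn with the counting error that the intervals assume. Spread between nuclei or between libraries was not simulated, so that run says nothing about either. All genes with at least 50 UMIs over both libraries in a class served as background. The clock genes are the 10 members of a fixed list; they, the gene lists and the rules were chosen with earlier results of these data known. All clock genes are named, with Srsf1, Thra, the 2 genes most like those described, and genes of the pathway lists past 2-fold in adipocytes or in at least 3 of 5 classes, of which 1 is not reported here. Alternatives were no filter, fixed limits (500 to 5000 genes per nucleus, mitochondrial share up to 5%), stricter and looser calls, Leiden clusters as classes, mitochondrial genes left out, centring, means over nuclei, subtraction of adipocyte RNA, nuclei with at least 2000 UMIs, removal of the top 10% of doublet scores and, added after the data had been seen, clusters shared by both libraries.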

Additional observations from a re-analysis of the deposited data

Results flagged for a closer look

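2 clock genes had opposite directions in different classes with intervals of the log2 ratio of KO to WT on either side of 0, and in both cases the difference between classes was not tested. Nr1d1 was at 0.59 in adipocytes and -0.69 in ASPCs, and it was above 0 in adipocytes (0.49 to 0.61) and below 0 in ASPCs (-1.39 to -0.43) under every alternative that gave the value. Clock was at 0.34 in mural nuclei and -0.14 in immune nuclei, and the immune ratio lay between -0.23 and 0.04 over the alternatives.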

How the results depend on the processing

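Over 12 alternatives, 527 of 589 ratios of a gene in a class stayed within their counting interval, 60 moved out of it and 2 that were past 2-fold reversed. The sign changed in 7 of 49 ratios after subtraction of adipocyte RNA, in 4 of 40 in clusters shared by both libraries, which gave no value for adipocytes, and in at most 4 of 50 under any other alternative. Both reversals were Npas2 in endothelial nuclei, at -0.16 with adipocyte RNA subtracted and -0.29 in shared clusters. Subtraction left 3 genes, not 7, with 1 direction in all 5 classes and raised the combinations at least 2-fold lower in KO from 5 to 9, and means over nuclei raised them to 8. The combinations at least 2-fold higher stayed between 6 and 9, beside 8, under the 11 alternatives that covered all 5 classes, and shared clusters left 4 of 37 tested, beside 6 in the same 4 classes as called. The log2 change of the balance stayed below 0 in all 5 classes. In adipocytes it was -0.90 with fixed limits on nuclei, -0.88 with stricter calls, -1.39 in Leiden clusters and -0.80 as a mean over nuclei. In immune nuclei it was -0.91 in Leiden clusters, -0.82 as a mean over nuclei and -0.15 after subtraction, which left no Per2 in WT. After subtraction it was -0.78 in ASPCs and -0.67 in endothelial nuclei, which were at -0.62 in shared clusters. The cause of these shifts was not tested. Over all genes, 5566 combinations of gene and class were at least 2-fold higher in KO and 8418 lower. With a minimum of 200 UMIs these were 3048 and 4359, over fewer genes tested, and with no minimum 11414 and 16822. In adipocytes, for example, 2393 and 2624 of 14195 genes were past 2-fold with a minimum of 50. There were 1509 and 1693 of 10675 with a minimum of 200. No paired analysis was possible because each genotype had 1 library. Depth limited Npas2 in WT immune nuclei (3 UMIs) and Dbp in KO endothelial and mural nuclei (28 and 18 UMIs) most.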

Other observations

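3 sets of nuclei were outside the comparisons, and the balance of E-box to ROR element clock genes was lower in KO in each of them. In uncalled nuclei (5891 WT, 3417 KO) it was 1.67 in WT and 0.532 in KO, a log2 change of -1.65 (95% counting interval -1.72 to -1.58). Arntl was at 17.1 CPM (UMIs per 1000000) in WT (476 UMIs) and 93.1 in KO (1951 UMIs) there, Npas2 at 1.44 (40 UMIs) and 45.3 (949 UMIs), and Per2 at 126 (3504 UMIs) and 52.7 (1105 UMIs). Uncalled nuclei held adipocyte genes at a median of 88.4% of the adipocyte level in WT and 63.5% in KO, and the cluster with the largest number of them was 6 in WT (3013 nuclei) and 24 in KO (1505 nuclei).

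In Schwann nuclei (108 WT, 41 KO) the balance was 1.30 in WT and 0.473 in KO, a log2 change of -1.46 (-1.94 to -0.98). Npas2 rested on 3 UMIs in WT and 29 in KO there, and Arntl on 24 and 36, a log2 ratio of 1.87 (1.09 to 2.68). Skeletal muscle nuclei (62 WT, 32 KO) had a change of -0.70 (-1.33 to -0.07). Arntl was at 6 and 31 UMIs in muscle, a log2 ratio of 2.23 (0.94 to 3.78), and Per2 (0.33), Per3 (0.06), Nr1d1 (1.03) and Dbp (1.44, from 2 and 6 UMIs) all had intervals that include 0.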
